A study of Homo sapiens with 6 samples.

Results

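The genes described here are 10 members of the TGF-beta and activin system, taken from the deposited gene count table by symbol. They are the ligand genes TGFB1, TGFB2 and TGFB3, the activin and inhibin subunit genes INHBA and INHBB, the receptor genes TGFBR1, TGFBR2 and TGFBR3, and the latent TGF-beta binding protein genes LTBP1 and LTBP2. All 10 were found among the 58735 genes of the table, and all 10 were among the 15400 genes with enough counts to be tested. The study compared RNA from human ovarian carcinoma cells that stably express BARD1, introduced by lentivirus as an open reading frame (the protocol mentions GFP-BARD1), with RNA from control cells, in 3 libraries per group labelled 48 h, to ask how BARD1 affects tumour angiogenesis pathways. BARD1 encodes a protein that forms a ubiquitin ligase with BRCA1. Titles and growth conditions are those of OVCAR8ip1 cells, an ovarian carcinoma line, but other tags give SKOV3ip1 as the line and SKOV3ip1 tumors as the tissue, so neither the line nor the kind of material is settled. What the control cells received is not stated, and the labels do not say whether the stable cells are a clone or a pool, so BARD1 cannot be told apart from other differences between the cells.

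TGF-beta ligands are made as precursors that are cut by furin and then held inactive by their own propeptide. That latent complex is tied to the matrix by latent binding proteins and fibrillin, and is released by integrins or other factors. Active ligand joins the type II receptor TGFBR2 to the type I receptor TGFBR1, which phosphorylates SMAD2 and SMAD3, and these enter the nucleus with SMAD4. Activins are dimers of beta subunits from INHBA or INHBB that signal to the same SMADs through their own receptors, whereas inhibins pair a beta subunit with the alpha subunit from INHA and oppose them. In epithelial tumours the system is known both for growth arrest and for matrix production and cell migration.

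The 4 promoters shown first belong to the ligand genes that changed, because within each ligand family 1 gene rose and another fell. TGFB1 and INHBB were higher in BARD1-expressing cells, and TGFB2 and INHBA were lower. Each line gives the 250 bases before the RefSeq start (build GRCh38.p14), 5′ to 3′ on the strand of the gene. Capitals mark matches on either strand. The GC box, bound by SP-family factors, was searched as GGGCGG, the TATA element of focused promoters as TATAAA, and the CAGA box known from SMAD binding as CAGACA. The windows lie at chr19:41353923-41354172 (minus strand) for TGFB1, chr2:120345886-120346135 (plus) for INHBB, chr1:218345086-218345335 (plus) for TGFB2 and chr7:41703091-41703340 (minus) for INHBA.
TGFB1: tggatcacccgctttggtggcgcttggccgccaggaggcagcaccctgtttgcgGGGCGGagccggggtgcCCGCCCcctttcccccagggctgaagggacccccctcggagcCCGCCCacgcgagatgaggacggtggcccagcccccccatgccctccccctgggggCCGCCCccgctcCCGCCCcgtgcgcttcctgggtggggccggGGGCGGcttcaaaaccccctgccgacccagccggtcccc
INHBB: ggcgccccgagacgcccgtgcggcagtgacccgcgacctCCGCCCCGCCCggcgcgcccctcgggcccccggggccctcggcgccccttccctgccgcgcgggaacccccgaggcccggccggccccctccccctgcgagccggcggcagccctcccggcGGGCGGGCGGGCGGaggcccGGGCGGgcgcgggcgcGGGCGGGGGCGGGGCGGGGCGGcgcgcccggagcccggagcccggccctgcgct
TGFB2: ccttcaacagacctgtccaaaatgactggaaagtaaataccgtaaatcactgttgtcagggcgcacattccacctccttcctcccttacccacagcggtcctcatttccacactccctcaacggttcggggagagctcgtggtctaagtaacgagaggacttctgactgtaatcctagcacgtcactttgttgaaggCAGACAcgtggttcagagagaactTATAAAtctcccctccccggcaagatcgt
INHBA: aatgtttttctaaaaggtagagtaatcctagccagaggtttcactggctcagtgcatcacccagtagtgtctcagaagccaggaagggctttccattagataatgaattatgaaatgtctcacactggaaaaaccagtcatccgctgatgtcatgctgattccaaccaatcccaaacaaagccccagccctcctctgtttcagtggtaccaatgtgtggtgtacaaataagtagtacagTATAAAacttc

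The windows of TGFB1 and INHBB held 6 and 10 GC boxes, some of those of INHBB overlapping each other, and no TATA element. The windows of TGFB2 and INHBA held 1 TATAAA match each, beginning 29 and 11 bases before the RefSeq start, and no GC box. Whether either match works as a TATA element was not tested. That of TGFB2 was accompanied by the CAGA box. GC content was 76.8% for TGFB1, 89.6% for INHBB, 50.4% for TGFB2 and 42.8% for INHBA. Over 35116 promoters of the same length, 42.6% held a GC box, 10.7% a TATA element and 13.6% the CAGA box. The other 2 members that fell, TGFBR3 and LTBP2, held 2 and 3 GC boxes. The split between the ligand genes thus did not extend to all members that changed. The windows of the ligand genes were chosen by direction of change and are too few to link direction with promoter type. Such a link was not tested. The call of TGFB2, given below, was lost in 3 of 12 alternatives. TGFB3, the ligand gene that was not called, held neither a GC box nor a TATA element. An AP-1 site (TGANTCA) and the SMAD palindrome (GTCTAGAC) were not found in the window of any member. Of all promoters 6.57% and 0.182% held them, so 10 windows are too few for this absence to set the members apart. LTBP1 held a cAMP response element (TGACGTCA, in 1.65% of promoters). The RefSeq start lay 11, 7, 899 and 2744 bases from the 5′ end of the gene in the deposited table for TGFB1, INHBB, TGFB2 and INHBA. For TGFBR3 and LTBP2 the distance was 20184 and 141 bases. The counts do not show which start was used.

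Total counts ran from 21819199 to 23992482 for control cells and from 12744310 to 24349158 for BARD1-expressing cells. Levels are given as CPM, the counts of a gene per 1000000 counts after scaling of library sizes (TMM), and fold changes are log2 of BARD1-expressing over control with the standard error (SE) of the fit. A gene is called at a Benjamini-Hochberg adjusted p under 0.05 in edgeR's quasi-likelihood test over all tested genes. BARD1 itself was at 17.1, 17.2 and 19.4 CPM without and 49.0, 44.3 and 45.7 CPM with the introduced gene, so each of the 6 matched its label; reads of the cell's own gene and of the introduced reading frame are not separable. The carcinoma markers KRT7, KRT8, KRT18, EPCAM and MSLN were present in both groups, KRT19 and MUC16 had no count in any library, and CDH1 (1.08 and 0.999 CPM in the group means) and WT1 (0.394 and 0.966 CPM, called higher although its groups overlap) were low. PAX8, a marker of this carcinoma type, fell from 143 ± 8.98 to 91.4 ± 6.09 CPM (SD, n = 3 each; -0.65 ± 0.061) and KRT7 rose (0.34 ± 0.049). None of 9 leukocyte markers reached the level for testing. The labels call the replicates biological without naming separate cultures, and the p-values cover no more than the spread seen among the 6 libraries.

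In RNA from bulk samples, fewer cells of a kind and less RNA per cell cannot be told apart. Of the 10 members, 2 rose (TGFB1 and INHBB) and 4 fell (INHBA, LTBP2, TGFB2 and TGFBR3), while TGFB3, TGFBR1, TGFBR2 and LTBP1 were not called. Over all tested genes 16.5% were called higher and 12.4% lower, 29.0% in all. The members were chosen with results of these data known, so their share is a description. Their median log2 fold change was 0.01, beside -0.00 over all tested genes, since changes in both directions offset each other. The groups did not overlap for the 6 called members, and over all tested genes they did not overlap at 40.9%. No member both passed and changed by at least 2-fold, as 4.71% of all tested genes did, INHBA coming nearest. Around each of the 10, the 24 nearest expressed protein-coding genes had a median log2 fold change between -0.09 (around TGFBR3) and 0.04 (around LTBP1).

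**Figure D1:**
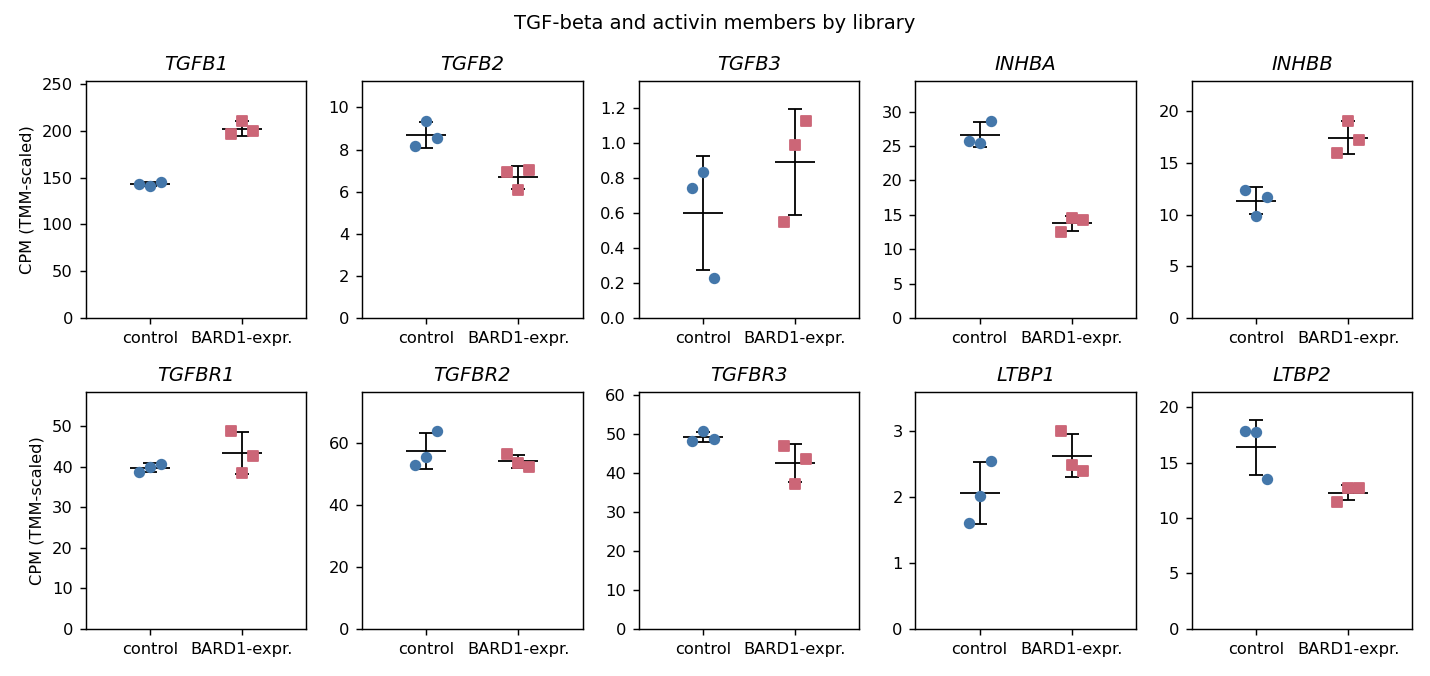
Expression of the 10 members in TMM-scaled CPM (linear axis from 0, scaled separately for each gene), with 1 point per library, a horizontal line at the group mean and error bars of 1 SD (n = 3). The groups are apart for TGFB1, TGFB2, INHBA, INHBB, TGFBR3 and LTBP2, and overlap for TGFB3, TGFBR1, TGFBR2 and LTBP1.

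TGFB1 (ENSG00000105329, chromosome 19, 41301587 to 41353911, minus strand, GRCh38), which encodes the most widely expressed TGF-beta ligand, had 3468, 3230 and 3139 reads in the control libraries, in the order of their numbers, against 2494, 5104 and 3012 with BARD1. This was 143, 142 and 145 CPM in control cells and 196, 211 and 199.9 CPM in BARD1-expressing cells. All 3 BARD1-expressing libraries lay above all 3 control libraries, with means of 143 ± 1.67 and 202 ± 7.60 CPM (SD, n = 3 each). On the log2 scale this was a change of 0.50 ± 0.051 (edgeR adjusted p = 3.98e-08), a rise of 1.41-fold with a 95% interval of 1.32 to 1.52. With each library left out in turn it stayed between 0.46 and 0.52. Exons of HNRNPUL1, on the opposite strand, cover 215 bases or 6.64% of the exon length of TGFB1, and strand use in counting is not stated. HNRNPUL1 itself had a log2 fold change of 0.10 ± 0.051 and was not called (edgeR adjusted p = 0.147).

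TGFB2 (ENSG00000092969, chromosome 1, 218346235 to 218444619, plus strand), a ligand that depends on betaglycan for strong receptor binding, was at 8.17, 9.37 and 8.53 CPM in control cells and 6.92, 6.07 and 7.03 CPM in BARD1-expressing cells. The highest BARD1-expressing library lay below the lowest control library. Its log2 fold change came to -0.39 ± 0.131 (edgeR adjusted p = 0.0261). The call was lost without control library 2 (-0.34, adjusted p = 0.114) or BARD1-expressing library 2 (-0.32, adjusted p = 0.125), and with DESeq2 (adjusted p = 0.0946). TGFB2 had 88 to 214 reads per library.

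TGFB3 (ENSG00000119699, chromosome 14, 75958099 to 75982991, minus strand) was close to the limit of detection, with 18, 19 and 5 reads in the control group against 7, 24 and 17 with BARD1. The groups overlapped, at 0.231 to 0.832 and 0.551 to 1.13 CPM. Its log2 fold change of 0.58 ± 0.429 did not pass (edgeR adjusted p = 0.342), with a 95% interval from 0.809-fold to 2.77-fold, which includes a 2-fold rise. Without control library 3 the log2 fold change was 0.21.

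The TGF-beta ligands can be set beside each other only per length, as CPM divided by gene length in kilobases. For each member this length is that of all annotated exons merged, not of the transcripts expressed. Shares and the order of levels between genes depend on it. On that scale TGFB1 made up 96.1 ± 0.367% of the summed ligand level in control cells and 97.7 ± 0.223% in BARD1-expressing cells (SD, n = 3 each). TGFB2 made up 3.67 ± 0.279% and 2.03 ± 0.224%, and TGFB3 0.267 ± 0.145% and 0.282 ± 0.0928%. The share of TGFB1 was 95.6% to 96.3% in control libraries and 97.5% to 97.9% in BARD1-expressing libraries, without overlap. An exact two-sided permutation test of the share gave p = 0.1 for TGFB1 and for TGFB2, the smallest p that 3 against 3 libraries allow (0.125 adjusted over 5 shares).

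INHBA (ENSG00000122641, chromosome 7, 41667168 to 41705834, minus strand), which encodes the beta A subunit of activin A, fell most among the members. It had 624, 581 and 622 reads in the control group against 160, 351 and 214 with BARD1. In CPM these were 25.7, 25.4 and 28.7 against 12.6, 14.5 and 14.2, so that the highest BARD1-expressing library was well below the lowest control library. Means were 26.6 ± 1.80 and 13.8 ± 1.03 CPM (SD, n = 3 each), with a log2 fold change of -0.94 ± 0.094 (edgeR adjusted p = 2.79e-08), 1.92-fold lower. It was -0.99 to -0.89 with 1 library left out. Its antisense gene INHBA-AS1 shares no exon base with it and had 0 to 8 reads per library. The nearest tested protein-coding genes, SUGCT (-0.13 ± 0.23) and GLI3 (-0.01 ± 0.12), were not called.

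INHBB (ENSG00000163083, chromosome 2, 120346143 to 120351808, plus strand), which encodes the beta B subunit of activin B, moved the other way. It was at 12.4, 9.90 and 11.7 CPM in control cells and 16.0, 19.1 and 17.2 CPM in BARD1-expressing cells, again without overlap. Means were 11.3 ± 1.29 and 17.4 ± 1.56 CPM (SD, n = 3 each), with a log2 fold change of 0.63 ± 0.110 (edgeR adjusted p = 9.48e-05), and 0.54 to 0.70 with 1 library left out. Its neighbour GLI2, 384 kb further along the chromosome, rose as well (0.36 ± 0.084), and RALB on the other side was not called (0.13 ± 0.051).

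The balance of the activin subunits differed between the groups. Per length, INHBA held 44.4%, 49.8% and 48.7% of the summed INHBA and INHBB level in the control libraries and 23.3%, 22.7% and 24.1% in the BARD1-expressing libraries. The ratio of INHBA to INHBB was 0.800 to 0.992 in control cells and 0.293 to 0.318 in BARD1-expressing cells. The mean share of INHBA fell by 24.3 percentage points, and an exact two-sided permutation test gave p = 0.1, the smallest possible (0.125 adjusted over 5 shares). INHA, which encodes the alpha subunit needed for inhibins, had at most 1 read in any library, below the floor of 3 reads, so INHA mRNA was not detectable at this depth.

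**Figure D2:**
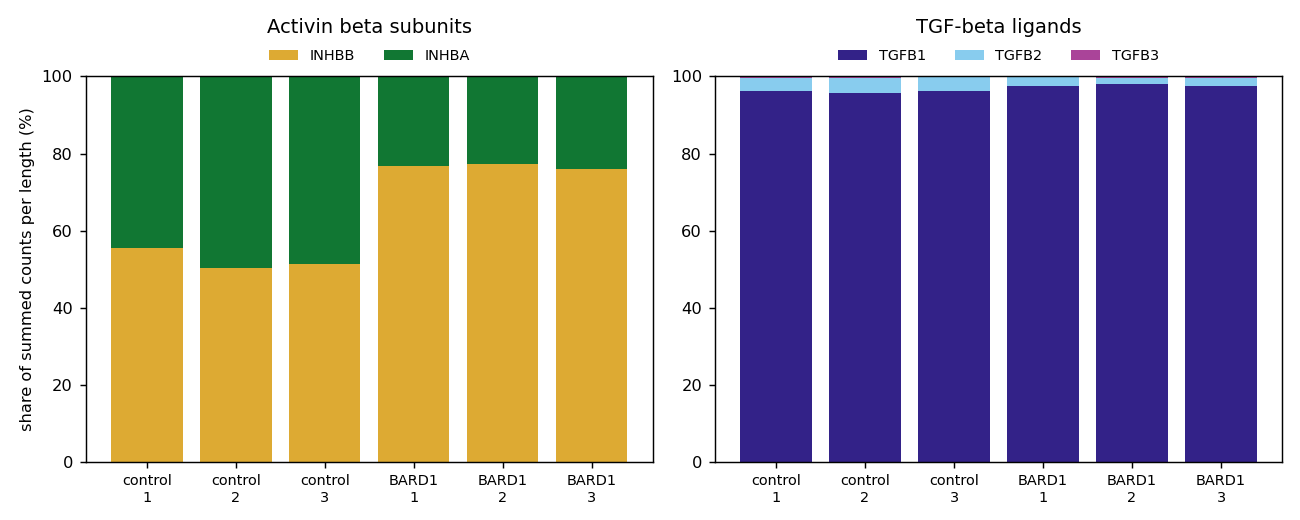
Share of each gene in the summed counts per length of its family, in percent, as 1 stacked bar per library, for INHBA and INHBB on the left and the TGF-beta ligands on the right. INHBA takes 44.4% to 49.8% in control libraries and 22.7% to 24.1% in BARD1-expressing libraries, while TGFB1 takes over 95% in each library.

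The signalling receptors of TGF-beta were not called. TGFBR1 (ENSG00000106799, chromosome 9, 99104038 to 99154192, plus strand), the type I receptor, was at 38.6, 40.0 and 40.6 CPM in control cells and 48.7, 38.4 and 42.7 CPM in BARD1-expressing cells. The BARD1-expressing libraries spanned the control range on both sides. TGFBR2 (ENSG00000163513, chromosome 3, 30606502 to 30694142, plus strand), the type II receptor, was at 52.8, 55.5 and 63.9 CPM and at 56.6, 53.6 and 52.3 CPM. The 95% interval of the change was 0.965-fold to 1.21-fold for TGFBR1 (edgeR adjusted p = 0.313) and 0.850-fold to 1.05-fold for TGFBR2 (edgeR adjusted p = 0.426), which bounds any difference without showing that there was none.

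TGFBR3 (ENSG00000069702, chromosome 1, 91680343 to 91906335, minus strand) encodes betaglycan, a co-receptor that presents TGF-beta ligands, TGFB2 above all, and also binds inhibin. It was at 48.4, 50.8 and 48.8 CPM in control cells and 47.0, 37.2 and 43.7 CPM in BARD1-expressing cells. The 3 BARD1-expressing libraries were lower, and BARD1-expressing library 1 came close to the controls. The log2 fold change of -0.22 ± 0.078 passed (edgeR adjusted p = 0.0362), but the call was lost in 7 of 12 alternatives. Without BARD1-expressing library 2 it was -0.13 (adjusted p = 0.234), without control libraries 1, 2 or 3 the adjusted p was 0.0577, 0.128 and 0.0546, and without BARD1-expressing library 3 it was 0.0674.

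LTBP2 (ENSG00000119681, chromosome 14, 74498170 to 74612378, minus strand) encodes a matrix protein of the LTBP family that binds fibrillin. It was at 17.8, 17.7 and 13.5 CPM in control cells and 11.5, 12.7 and 12.7 CPM in BARD1-expressing cells. Control library 3 stood near the BARD1-expressing libraries, and the groups did not overlap. Its change on the log2 scale was -0.41 ± 0.114 (edgeR adjusted p = 0.00838). Without control library 2 the call was just lost (-0.35, adjusted p = 0.0518). LTBP1 (ENSG00000049323, chromosome 2, 32946972 to 33399509, plus strand), whose product ties latent TGF-beta to the matrix, had only 36 to 60 reads per library. It was at 1.61 to 2.54 CPM in control cells and 2.39 to 2.99 CPM in BARD1-expressing cells, with overlap, and was not called (0.34 ± 0.235, edgeR adjusted p = 0.302).

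**Figure D3:**
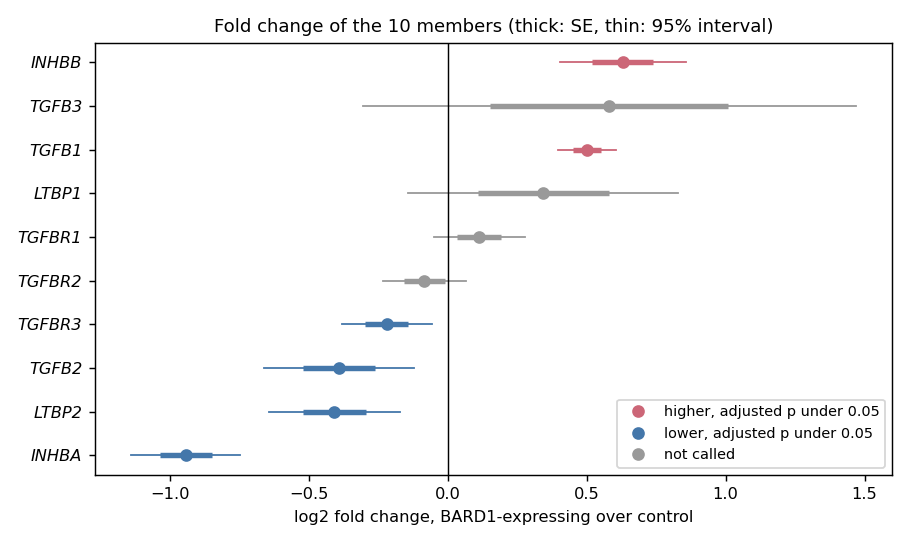
Log2 fold change of each member, BARD1-expressing over control, with the SE (thick line) and the 95% interval (thin line) of the edgeR fit, coloured by call. INHBA at -0.94 and INHBB at 0.63 mark the ends, and the intervals of TGFB3, LTBP1, TGFBR1 and TGFBR2 include 0.

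Per length, the order of levels in control cells ran from TGFB1 (44.2 ± 0.515 CPM per kb) over TGFBR2 (12.2 ± 1.22), TGFBR1 (5.80 ± 0.151), TGFBR3 (5.66 ± 0.148), INHBB (3.54 ± 0.404), INHBA (3.21 ± 0.216), LTBP2 (1.80 ± 0.271), TGFB2 (1.69 ± 0.120) and LTBP1 (0.280 ± 0.0635) to TGFB3 (0.122 ± 0.0660; SD, n = 3 each). TGFBR1 and TGFBR3, INHBB and INHBA, and LTBP2 and TGFB2 overlapped in range and cannot be ordered. In BARD1-expressing cells TGFB1 reached 62.5 ± 2.35 CPM per kb. INHBB (5.44 ± 0.488) stood above TGFBR3 (4.90 ± 0.568) in the mean, with ranges that overlapped each other, and INHBA (1.66 ± 0.124) no longer overlapped INHBB.

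For the 3 members with the smallest p, the nearest patterns among 13676 genes averaging 1 CPM or more were sought by the root mean squared difference of log2 CPM from the control mean over the 6 libraries. Nearest to INHBA were TXNL4A (0.0484), MEX3C (0.0708) and MCTP1 (0.0748), and the first 2 lie on chromosome 18, where most genes fell. Those nearest to TGFB1 were SEMA7A (0.0187), CARS (0.0258) and HARS2 (0.0267). HARS2 lies on chromosome 5, which holds a stretch of genes that rose together. Nearest to INHBB were the AP-1 gene JUNB (0.0483), KCNIP3 (0.0599) and GEM (0.0610).

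The rest of the pathway was taken from 6 lists chosen by role, with 90 genes in all, of which 68 were tested. Of these 22 rose and 16 fell, 30 were not called, and the median log2 fold change was 0.06, beside 16.5% called higher and 12.4% lower over all tested genes. The lists were chosen with results of these data known, so these counts, and those of each list, are descriptions. In BARD1-expressing cells the co-receptor gene ENG was the gene of these lists with the highest log2 fold change and the matrix gene FN1 the one with the lowest. The genes of SMAD2 and SMAD4 fell together with their chromosome.

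Among 8 tested genes of latency and activation 4 rose and 3 fell (median 0.12). FBN1, the fibrillin to which latent complexes attach, rose from 40.4, 38.1 and 36.9 CPM to 66.5, 68.4 and 67.1 CPM (0.81 ± 0.066). The latent binding protein gene LTBP3 rose (0.65 ± 0.100) and LTBP4 fell (-0.25 ± 0.062), so the LTBP family moved in both directions. FURIN, the convertase that cuts the precursors, rose by 0.37 ± 0.078, and THBS1, the thrombospondin known to activate latent TGF-beta, by 0.19 ± 0.049. The integrin gene ITGB8, which pairs with ITGAV to release active ligand, fell from 61.6 ± 0.371 to 42.8 ± 2.80 CPM (SD, n = 3 each), whereas ITGAV was not called (0.05 ± 0.056). NRROS, which anchors latent TGF-beta at the cell surface, fell (-0.85 ± 0.229), and its call was lost without control library 2 (adjusted p = 0.0566).

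Of 13 other ligand genes only GDF11 was tested, and it was not called (-0.17 ± 0.071, edgeR adjusted p = 0.0849), although its groups did not overlap. LEFTY2, GDF1, GDF3, GDF10 and MSTN had no count in any library. Among 7 tested receptors and co-receptors 3 rose and none fell at adjusted p under 0.05. ENG, which encodes endoglin, a co-receptor best known from endothelial cells, was at 4.54, 6.18 and 6.27 CPM in control cells and 19.4, 20.6 and 23.5 CPM in BARD1-expressing cells. Each BARD1-expressing library was at least 3 times as high as any control library, with a log2 fold change of 1.91 ± 0.126 (edgeR adjusted p = 3.01e-11). ACVRL1, the type I receptor that works with endoglin, rose from 1.86 ± 0.467 to 3.74 ± 0.495 CPM (SD, n = 3 each; 1.02 ± 0.221). CD109, a co-receptor that restrains TGF-beta signalling, rose by 0.33 ± 0.055. The activin receptor genes ACVR1B (0.02 ± 0.082), ACVR2A (-0.13 ± 0.100) and ACVR2B (0.25 ± 0.100), like ACVR1 (-0.15 ± 0.087), did not pass.

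Because ENG and ACVRL1 are known from endothelium, the endothelial markers are given beside them. Of 8 markers 2 were tested, ESAM (2.19 ± 0.212) and KDR (1.60 ± 0.476), and both rose. The summed level of the 8 was 2.06 to 2.10 CPM in control libraries and 6.06 to 7.90 CPM in BARD1-expressing libraries. Most of this sum was ESAM, at 1.19 and 5.38 CPM in the group means, while KDR was at 0.265 and 0.835 CPM. VWF was at 0.27 and 0.44 CPM, TEK at 0.0138 and 0.0221 CPM, and CLDN5, lower with BARD1, at 0.187 and 0.157 CPM. EMCN had no count, CDH5 was at 0.0138 and 0.0359 CPM and PECAM1 at 0.145 and 0.330 CPM in the group means. The part of other cells in the rise of ENG was not tested. Of 5 tested fibroblast and pericyte markers 3 rose (PDGFRB, LUM and ACTA2), COL1A1 fell, and RGS5 was not called (-0.18 ± 0.439). ACTA2 lost its call in 6 of 12 alternatives. LUM (0.186 and 0.795 CPM in the group means) and ACTA2 (0.303 and 0.770 CPM) were low, and PDGFRB was at 4.81 and 13.75 CPM. PDGFRB lies on chromosome 5 between the target genes TGFBI and ADAM19, which lie among genes that rose together. The 24 expressed genes nearest to ACTA2 had a median log2 fold change of 0.22, with 13 called higher and 0 lower. PDGFRA, FAP, THY1 and COL3A1 did not reach the level for testing, and DCN had no count in any library.

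Of 14 tested inhibitors and feedback genes 2 rose and 4 fell (median 0.03). FSTL1, a follistatin-like secreted protein gene, rose from 468 ± 10.6 to 713 ± 35.4 CPM (0.61 ± 0.049), and BAMBI, a receptor decoy, from 8.84 ± 0.339 to 14.3 ± 1.18 CPM (0.70 ± 0.111; SD, n = 3 each). The activin binders FST (-0.09 ± 0.289) and FSTL3 (0.00 ± 0.054) were not called. PMEPA1, a target gene whose product holds back receptor-activated SMADs, fell (-0.43 ± 0.095), as did USP15 (-0.27 ± 0.071). USP15 encodes a deubiquitinase of the pathway and is counted in this list although it is not an inhibitor of TGF-beta signalling. SMAD7 (-0.48 ± 0.109), the inhibitory SMAD, and TGIF1 (-0.44 ± 0.065), a corepressor, fell and lie on chromosome 18.

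Among 10 tested SMADs and partners 1 rose and 3 fell (median -0.07). SMAD4, the shared partner, was at 133, 138 and 139 CPM in control cells and 80.9, 74.4 and 73.4 CPM in BARD1-expressing cells (-0.84 ± 0.057, edgeR adjusted p = 3.94e-11). SMAD2 fell as much, from 75.8 ± 5.25 to 42.5 ± 4.58 CPM (-0.84 ± 0.076), whereas SMAD3 rose from 33.7 ± 1.30 to 47.7 ± 3.50 CPM (0.50 ± 0.074; SD, n = 3 each). SMAD2, SMAD4 and SMAD7 all lie on chromosome 18, where 74.6% of 228 tested genes were lower. The 24 expressed genes nearest to each had a median of -0.91 around SMAD2, -0.99 around SMAD4 and -0.92 around SMAD7. SMAD2 and SMAD4 thus fell by about as much as their neighbours and SMAD7 by less. ZFYVE9, which anchors SMADs at the receptor and lies on chromosome 1, fell too (-0.33 ± 0.089), a call lost without BARD1-expressing library 2 (adjusted p = 0.0556). Without chromosome 18 genes, 1 SMAD or partner gene was lower, and so were 2 genes of the inhibitors and feedback list, PMEPA1 and USP15.

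Among 28 tested genes known to respond to TGF-beta 12 rose and 6 fell (median 0.16). FN1, the fibronectin gene, fell from 5081 ± 380 to 1075 ± 38.6 CPM, the lowest log2 fold change of the lists (-2.24 ± 0.054), and COL1A1 fell by 0.32 on the log2 scale. CDH2 (-0.70 ± 0.052) fell and lies on chromosome 18, and PDGFB (-0.91 ± 0.232) fell as well. The related transcription factor genes SNAI2 and SNAI1 went opposite ways, SNAI2 falling (-0.61 ± 0.119) and SNAI1 rising (0.60 ± 0.137). ANGPTL4 had the highest log2 fold change of the targets (1.41 ± 0.260), at 0.825 to 1.15 CPM in control and 2.39 to 2.99 CPM in BARD1-expressing libraries. TGM2, a transglutaminase gene, rose from 90.1 ± 3.40 to 158 ± 5.41 CPM (0.81 ± 0.054), and the cell cycle inhibitor gene CDKN1A from 13.6 ± 2.33 to 30.6 ± 1.49 CPM (1.18 ± 0.105; SD, n = 3 each). TGFBI (0.70 ± 0.048) and ADAM19 (0.58 ± 0.078) rose, and both lie on chromosome 5 among genes that rose together, with a median of 0.59 and 0.36 over the 24 nearest. BHLHE40 (0.59 ± 0.068), JUNB (0.66 ± 0.102) and TPM1 (0.32 ± 0.049) rose outside such a stretch. CTGF (0.16 ± 0.070) did not pass.

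**Figure D4:**
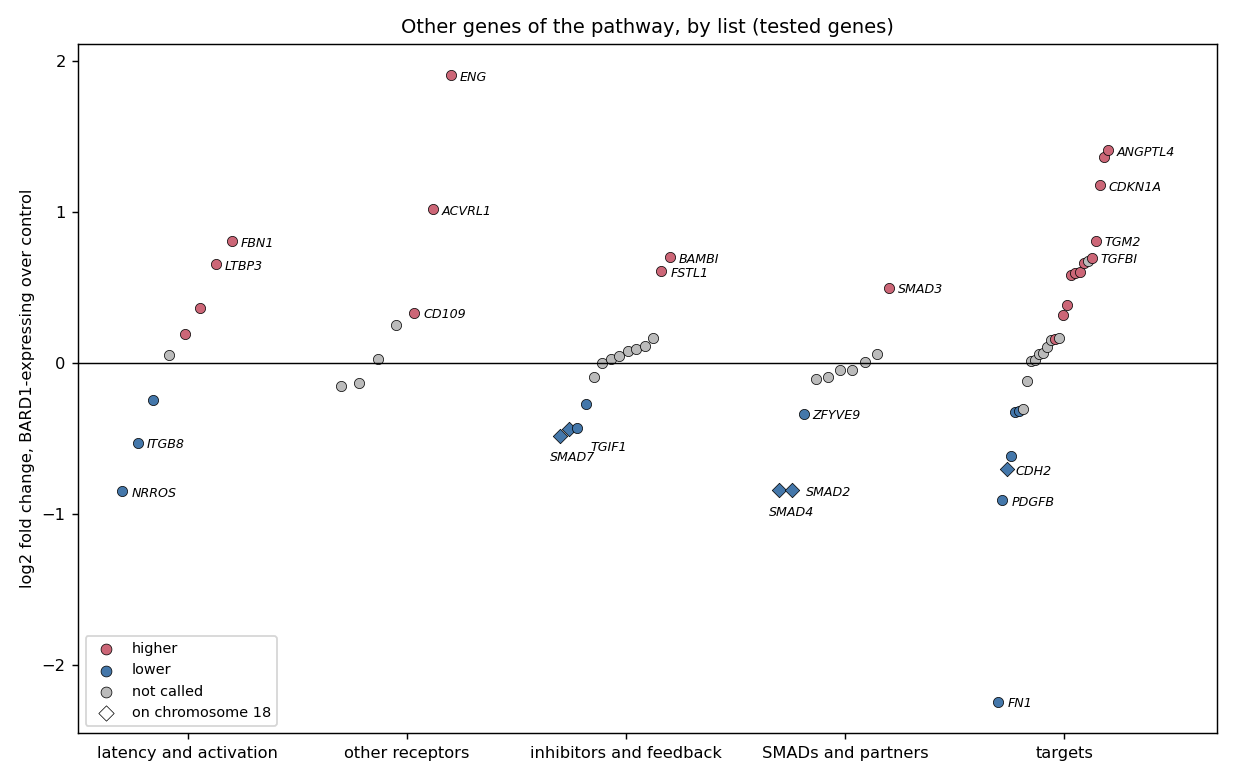
Log2 fold change, BARD1-expressing over control, of the tested genes of 5 pathway lists, 1 point per gene, coloured by call, with diamonds for genes of chromosome 18. The single tested gene of the other ligands, GDF11, is left out. ENG at 1.91 and FN1 at -2.24 mark the ends, and SMAD2 and SMAD4 lie together at -0.84 while SMAD3 is at 0.50.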

How the data were processed

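The authors' deposited table gives, for each gene, unnormalized read counts (whole numbers with unequal library totals) together with the position, length and biotype of 58735 genes. Per the submitters' processing notes, the tools were HISAT2 2.0.5, DESeq2 1.20.0 and featureCounts 1.5.0-p3, and the build was GRCh38 (hg38). Roles, options and any use of strand are not given in the sources used here. Each column name equals the description label of 1 sample. Gene length, another deposited value, is in bases. Start and end matched GENCODE release 29 for 58724 genes (99.98%), which was used for exons and overlaps.

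Counts were filtered with filterByExpr, scaled by TMM and tested in R 4.3.3 with edgeR 4.0.16 (robust quasi-likelihood F test, group only, Benjamini-Hochberg adjustment over 15400 genes). The SE is the log2 fold change divided by the square root of F. A count of 0 allows up to 3 counts, 0.124 to 0.236 CPM, for counting error only. Replicates differed beyond sampling noise (chi-square per degree of freedom 3.41 to 8.11). The pipeline was tested on simulated counts. Alternatives were other scalings, no filter, DESeq2 1.42.0, limma-voom (limma 3.58.1), a replicate block and leaving out each library.

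The members, lists and tests were chosen with earlier results of these data known. All members are named, and of each list up to 5 called genes with the smallest p, genes on chromosome 18 or in the raised stretch of chromosome 5, and the 3 nearest patterns of 3 members. Other genes were named after their values were seen. One gene of the target list is counted but not reported here. All 10 members were found in the RefSeq promoter table (GRCh38.p14), which holds 250 bases before each start.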

Additional observations from a re-analysis of the deposited data

How the results depend on the processing

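The count of members that rose was 2 under each of 12 alternatives. The count that fell was 4 in the reported fit and 2 with DESeq2, and it ranged from 1 to 4 with 1 library left out, lowest without control library 2 and 2 without BARD1-expressing library 2. INHBA, TGFB1 and INHBB kept their calls in all 12, LTBP2 in 11, TGFB2 in 9 and TGFBR3 in 5. TGFB3, TGFBR1, TGFBR2 and LTBP1 kept their sign and stayed uncalled in all 12. Genes of the 6 pathway lists called in either direction numbered 38, and 34 to 42 with 1 library left out. Without chromosome 18 genes, an alternative chosen after seeing the data, 33 were called, 22 higher and 11 lower. Calls were also lost for ACTA2 (6 of 12 alternatives), CDKN2B (3) and TWIST1 (2). The cause of these losses was not tested.

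The labels do not say whether the replicate numbers pair the libraries. Deviations of same-numbered libraries from their group means correlated at -0.112, -0.0315 and -0.00885, which cannot show how the libraries were prepared. With the replicate number as a block, 2 members rose and 3 fell, TGFBR3 being lost (adjusted p = 0.0513), and 37 pathway genes were called, 21 higher and 16 lower. Not divided by length, the share of TGFB1 differed by 2.49 percentage points in place of 1.62 and that of TGFB2 by -2.51 in place of -1.64. Depth limits TGFB3 (5 to 24 reads per library) and LTBP1 (36 to 60 reads).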
